A study of Mus musculus with 13 samples.

Results

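The 54-nt alternative exon of the mouse Mbnl1 pre-mRNA and the intron that follows it were described nucleotide by nucleotide in SHAPE-MaP profiles of fibroblasts. The members were chosen by position alone: the amplified Mbnl1 region from nucleotide (nt) 203, the first of the exon, to its end. They are 257 nt, or 56.0% of the Mbnl1 region, of which the other 202 nt are upstream intron, and the series covers 1109 nt over 3 RNAs. Of these, 232 carried a value in all 4 profiles: every one of the 54 exon nt and 178 of 203 intron nt, the last of them nt 436. The 25 members without a value were nt 310, nt 348 and the 23 nt at the 3′ end of the amplicon.

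In SHAPE-MaP a small electrophile, here NAI, enters living cells and modifies the ribose of nucleotides that are flexible, and the modified positions appear as mutations in the cDNA. The 13 samples of the series came from mouse embryonic fibroblasts (MEFs) of genotype Mbnl1-/-/Mbnl2-/-, so every group, controls included, carried both knockouts. The labels do not say which part of Mbnl1 is deleted, and the amplicon was read from its transcript. In the 3 induced samples MBNL1 was switched on with doxycycline at 1 ug/mL for 18 to 20 hours, and the uninduced sample was titled as having had no doxycycline. Cells were exposed for 12 minutes to NAI at 100 mM, or to DMSO alone as mock control, and total RNA was then taken. The Mbnl1 amplicon had 9 samples, and reactivity profiles of 3 induced sets and 1 uninduced set were used. The construct that carries the inducible MBNL1, its promoter and the protein level reached are not given in the labels. The labels also do not say whether the numbered sets were separate cultures, so p-values measure only the spread between these samples, which may be technical. Read depth is unknown.

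MBNL1 is an RNA-binding splicing regulator, and its own pre-mRNA is among its targets: MBNL proteins promote skipping of this exon, which codes for part of the signal that keeps the protein in the nucleus. A 5′ splice site is read first by the U1 snRNP, which pairs with the last exon and first intron nucleotides, and a site held in a hairpin is less open to that pairing. Uridine-rich stretches just downstream of a 5′ splice site are known binding places of TIA1, which helps U1 to bind. A high SHAPE reactivity is read as local flexibility of the backbone. Low reactivity can come from base pairing, stacking or contact with a protein.

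The exon lies at chr3:60614683-60614736 and the downstream intron part at chr3:60614737-60614939, both on the plus strand of mm10. Every letter of the region matched GRCm38. In the GENCODE M21 annotation of Mbnl1 (ENSMUSG00000027763.13) the exon belonged to 5 of 14 transcripts that span it, as exon number 3, 4, 5 or 6, and 4 of those 5 were coding. Measured sequence is shown in 3 stretches, because the contrast between a sparse exon and a densely reactive intron can be read from the letters. Each is written 5′ to 3′, and capitals mark nucleotides with a reactivity above 0.4 in all 4 profiles; values up to 0.4 are commonly read as low and those above 0.85 as high.
Exon, nt 203 to 256: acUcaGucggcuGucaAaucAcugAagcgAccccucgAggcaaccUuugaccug
Intron start, nt 257 to 308: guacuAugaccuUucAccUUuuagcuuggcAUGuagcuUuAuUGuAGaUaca
Intron end, nt 359 to 436: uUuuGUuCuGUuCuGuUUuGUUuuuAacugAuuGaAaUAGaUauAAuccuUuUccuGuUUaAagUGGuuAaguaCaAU

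The exon held 9 capitals among 54 letters, the first 52 intron nt held 15, and the intron end 36 of 78. Reactive exon nucleotides stood alone: the longest run above 0.4 in all 4 profiles was 1 nt long (U205 was the first). In the intron such nucleotides also came in short runs, the longest being the 5 nt from 317 to 321.

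The exon was the quieter part in every profile. Its mean reactivity, in the deposited score, was 0.319 in the uninduced profile and 0.306, 0.295 and 0.316 in induced replicates 1 to 3. The downstream intron had 0.569 in the uninduced profile and 0.624, 0.623 and 0.614 in the induced ones. The exon thus lay below the intron in 4 of 4 profiles, by 0.299 on average. The difference was -0.249 in the uninduced profile and -0.315 ± 0.0151 (SD, n = 3) in the induced ones. An exact two-sided sign-flip permutation over the 4 profiles gave p = 0.125, the smallest p that 4 profiles allow. With A, C, G and U given equal weight in both parts, the mean difference was -0.286, so the gap was nearly as large when the uridine-rich make-up of the intron was set aside.

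The same contrast showed in the counts. In the exon 34 of 54 nt (63.0%) were below 0.4 in all 4 profiles, against 63 of 178 (35.4%) in the intron and 45.2% over the whole region. No exon nucleotide exceeded 0.85 in all 4 profiles, while 29 intron nt (16.3%) did, against 9.58% over the region. The share below 0.4 was 68.5% in the uninduced exon and 74.1 to 79.6% in the induced exon. In the intron it was 48.3% uninduced and 45.5 to 47.2% induced. Values below 0, which a background subtraction can leave, numbered 11 in the uninduced exon profile and 9, 3 and 3 in the induced ones. In the intron they numbered 24 and 13, 12 and 14, so the uninduced profile held the most in both parts. Their part in the differences between groups was not tested.

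**Figure D1:**
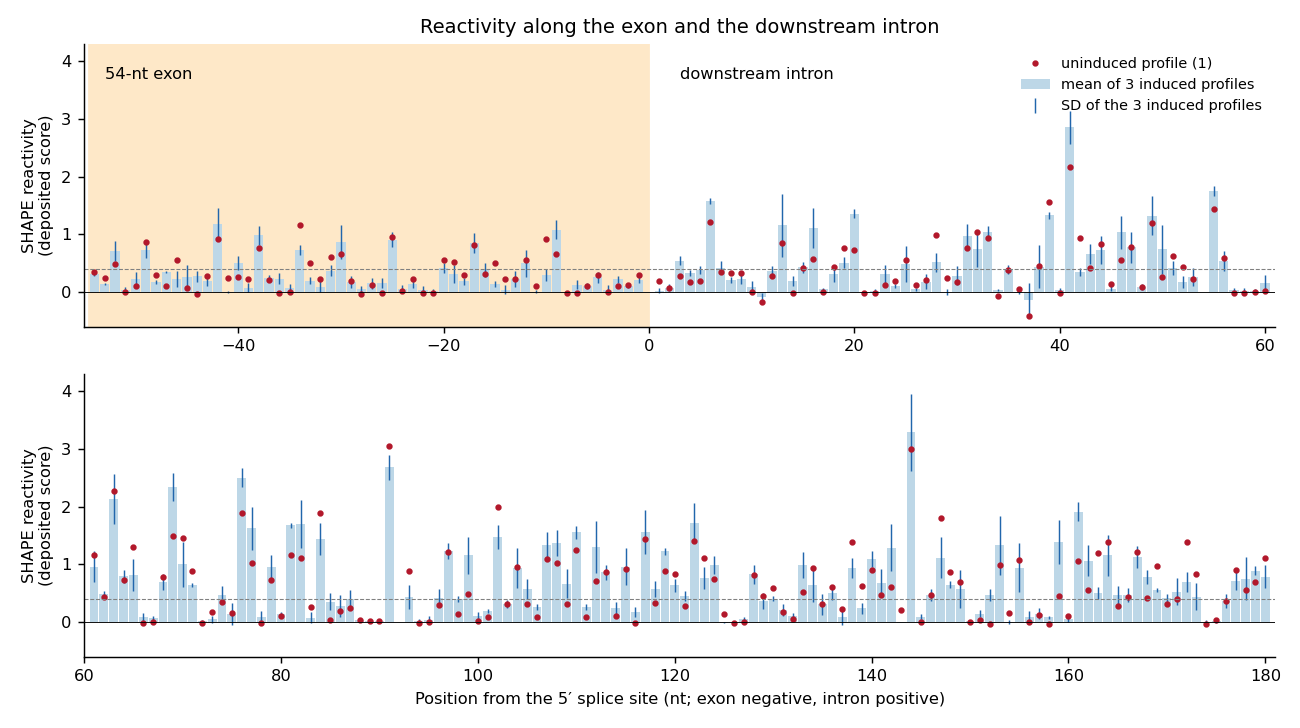
SHAPE reactivity (deposited score, vertical axes) of each measured nucleotide by its distance from the 5′ splice site (horizontal axes, nt; exon negative, intron positive). Bars are the mean of 3 induced profiles with their SD, red points the 1 uninduced profile, the dashed line is 0.4, and the shaded exon stays below the tallest intron peaks throughout.

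Profiles resembled each other in both parts, with the uninduced one somewhat apart. Over the 54 exon nt Pearson's r was 0.846 to 0.875 within the induced group and 0.744 to 0.755 for the uninduced profile against each induced one. Over the 178 measured intron nt it was 0.874 to 0.919 and 0.838 to 0.872. These are descriptions across neighbouring nucleotides that share a library and a base composition. The median SD of a nucleotide between induced profiles was 0.0856 in the exon and 0.116 in the intron.

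Within the exon the reactive nucleotides were spread from its start to 9 nt before its end, and 5 of the 9 above 0.4 in all profiles were adenosines. By mean induced reactivity the 5 leading ones were G215, U248, A219, A232 and A227. G215 (chr3, 60614695) had 0.914 uninduced and 1.36, 1.31 and 0.847 induced. U248 (60614728) had 0.655 uninduced and 0.907, 1.11 and 1.25 induced, and here the uninduced value lay below all induced ones. A232 (60614712) had 0.949 uninduced and 0.791, 0.887 and 1.05 induced, with the uninduced value among the others. Exon adenosines averaged 0.505 uninduced and 0.491 ± 0.0157 induced (SD, n = 3). Exon cytidines, the commonest base of the exon with 18 of 54 nt, averaged 0.185 and 0.163 ± 0.0237, the lowest of the 4 bases. Guanosines and uridines lay between these, at 0.376 and 0.335 ± 0.0220 and at 0.257 and 0.286 ± 0.0258.

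The end of the exon was its quietest stretch. The longest run with all 4 values below 0.4 was the 8 nt UUGACCUG at nt 249 to 256 (chr3:60614729-60614736). Counted across the exon's end it went on through G257 and U258, the first intron nucleotides, and was 10 nt long. Single values there ranged from -0.0165 to 0.361. The mean of the 8 exon nt was 0.115 uninduced and 0.144, 0.134 and 0.125 induced. Within the intron alone the longest such runs had 4 nt, and there were 2 of them: GACC at nt 264 to 267 (chr3:60614744-60614747), and nt 313 to 316.

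This quiet end forms the 3′ strand of a hairpin in structure models. ViennaRNA folds of the whole amplified region, with each profile added as a pseudo-energy, placed 6 pairs between nt 240 to 245 and nt 249 to 255, closing a loop of 3 nt with A252 bulged. The hairpin is written here with its 12 paired nucleotides in capitals, at chr3:60614720-60614735 on the plus strand.
Hairpin at the exon end, nt 240 to 255: AGGCAAccuUUGaCCU
All 6 pairs were in the minimum free energy structure guided by 3 of the 4 profiles, the exception being induced replicate 2. The mean probability of the 6 pairs was 0.769 in the uninduced fold and 0.734, 0.611 and 0.8003 in the induced ones. Without any reactivity it was 0.0756, so the sequence alone did not give the hairpin. The count of folds with the hairpin turned on the setting. With a pseudo-energy slope of 2.6, the minimum free energy structures of induced replicates 1 and 2 both held 0 of the 6 pairs. Folded without the upstream intron, those of all 4 profiles held all 6. Models of this kind are guided by the reactivities, so low values in a modelled stem are not independent of it, and the hairpin was picked out after the folds were seen.

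The 2 strands of the modelled stem differed in reactivity. The 6 paired nucleotides of the 3′ strand averaged 0.0515 uninduced and 0.101 ± 0.0209 induced (SD, n = 3), and all 6 stayed below 0.4 in every profile. The 6 of the 5′ strand averaged 0.443 and 0.358 ± 0.0495, and A240 at the foot of the stem had 0.818 uninduced and 0.653 to 0.979 induced. The strand opposite the quiet one was therefore not quiet throughout. In the loop, C246 was near 0 (0.109 uninduced, -0.0116 to 0.0326 induced) while U248 was among the most reactive exon nucleotides. C247, in the middle of the loop, had 0.920 uninduced and 0.202, 0.412 and 0.280 induced. Its change of -1.48 profile means, where 1 is the mean reactivity of a profile, was the largest downward one of the exon nucleotides whose uninduced value lay outside the induced ones. In limma its adjusted p was 0.235 over 407 nt, short of the threshold of 0.05.

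**Figure D2:**
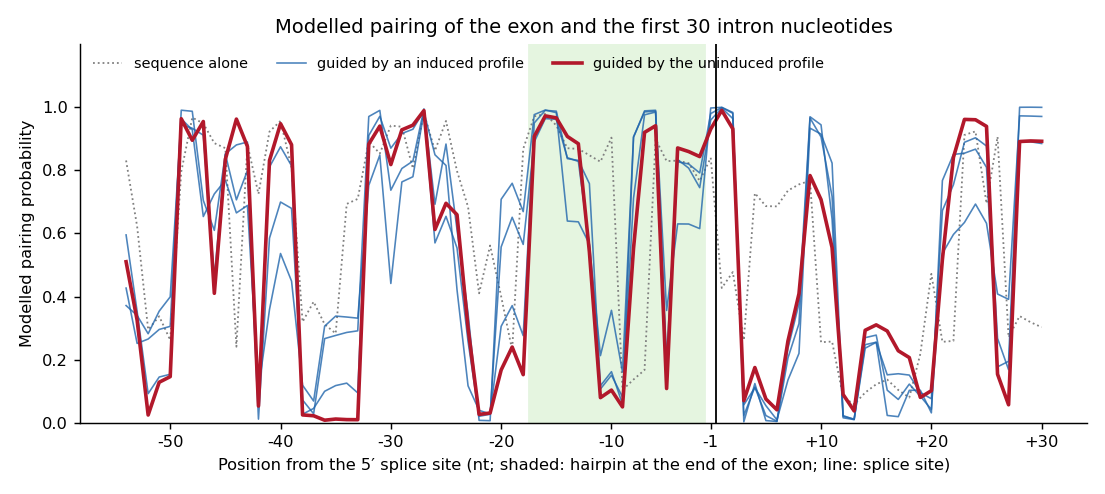
Modelled probability that a nucleotide is paired (vertical axis, 0 to 1) in the exon and the first 30 intron nt (horizontal axis, distance from the 5′ splice site in nt). The red line is the fold guided by the uninduced profile, blue lines those guided by the 3 induced profiles, and the dotted line the fold of the sequence alone; the shaded hairpin shows 2 paired arms around its loop.

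Over the whole exon the modelled pairing probability was 0.549 uninduced and 0.576 ± 0.0161 induced (SD, n = 3), and 0.701 from sequence alone. The intron had 0.384 and 0.382 ± 0.0262, and 0.551 from sequence alone. Guided folds thus had less modelled pairing than sequence alone in both parts. A second exon hairpin, of 3 pairs at nt 216 to 227 (chr3:60614696-60614707), had a pair probability of 0.848 uninduced and 0.614 ± 0.202 induced. Its spread between induced folds, 0.397 to 0.796, was wide.

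The 5′ splice site was quiet on its exon side and at the first intron bases, and reactive only further into the intron. The site is shown from the last 3 exon nt to the first 6 intron nt, with the intron in capitals, at chr3:60614734-60614742 on the plus strand.
5′ splice site, nt 254 to 262: cugGUACUA
Its intron letters match those of the consensus GUAAGU, the complement of the U1 5′ end, at 3 of 6 places. The 3 exon nt C254, U255 and G256 averaged 0.178 uninduced and 0.192, 0.166 and 0.179 induced. The first intron guanosine, G257, had 0.194 uninduced and 0.0723, 0.000975 and 0.00420 induced, and U258 had 0.0678 and 0.0514, 0.148 and 0.0282. The GU that defines the intron start thus stayed below 0.2 in every profile, G257 being lower in all 3 induced profiles than in the uninduced one. The change at G257 was -0.39 profile means (SE 0.12), and in limma its adjusted p was 0.309. G257 passed limma only without induced replicate 1, with an adjusted p of 0.0189.

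Intron positions 3 to 6 had the opposite order, the uninduced value being the lowest of the 4 at each of them. A259 had 0.288 uninduced and 0.604, 0.451 and 0.576 induced. C260 had 0.183 and 0.275, 0.336 and 0.386. U261 had 0.197 and 0.346, 0.353 and 0.460. A262 stood far above its neighbours, at 1.22 uninduced and 1.59, 1.62 and 1.51 induced. The mean of these 4 nt was 0.471 uninduced and 0.703, 0.690 and 0.734 induced, 0.49 profile means higher with induction. Over the region as a whole, with each profile divided by its mean, 37.6% of nucleotides had their uninduced value below all induced ones. None of the 4 passed limma (adjusted p 0.585 to 0.608).

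Taking all 9 nt of the site, the mean was 0.297 uninduced and 0.390, 0.379 and 0.390 induced, a change of 0.17 profile means. For 3 profiles against 1 the smallest one-sided p of an exact permutation is 0.25, so that permutation cannot pass, and segment means were not tested in limma. The 25-nt window of nt 251 to 275, which holds the whole site and most of the intron start, was tested and did not pass. Its change was 0.12 profile means (SE 0.081), with a limma adjusted p of 0.418. Much of the change of the 9-nt site sat in A262: without it the change was 0.11, and taken as a median over the 9 nt it was 0.12. Modelled pairing of the site was 0.546 uninduced and 0.511 ± 0.0229 induced (SD, n = 3). When the exon and downstream intron were folded without the upstream intron it was 0.794 and 0.758 ± 0.0264, so the modelled closure of the site turned on how much flanking sequence was folded. A hairpin of 3 pairs joining G256 to the intron, nt 256 to 267 (chr3:60614736-60614747), had a pair probability of 0.436 uninduced and 0.692 ± 0.0609 induced in the folds of the whole region. It was 0.00550 and 0.0731 ± 0.0606 without the upstream intron.

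**Figure D3:**
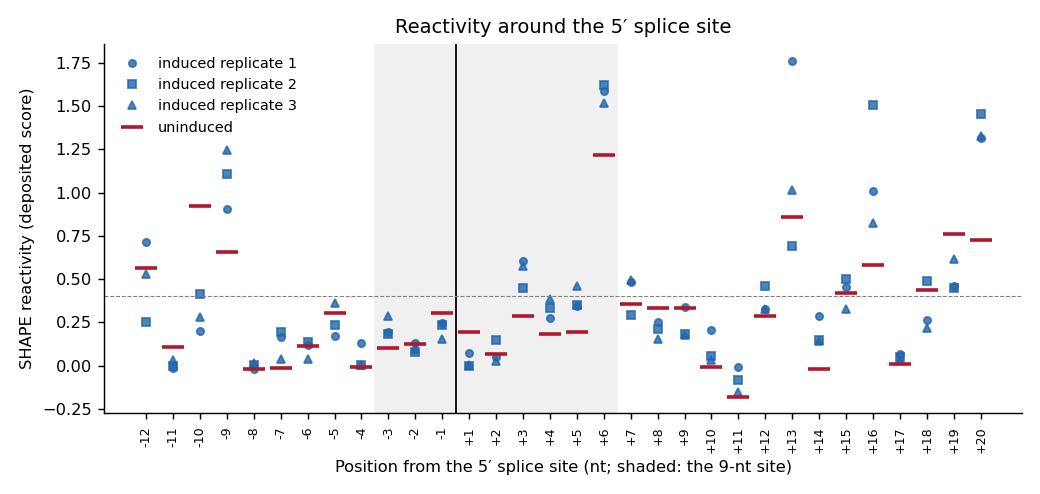
SHAPE reactivity (deposited score, vertical axis) from 12 nt before to 20 nt after the 5′ splice site (horizontal axis, nt). Blue symbols are induced replicates 1, 2 and 3, red dashes the uninduced profile, the shaded band is the 9-nt site and the dashed line 0.4; at positions +3 to +6 the red dash lies below all blue symbols.

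The first 20 intron nt (chr3:60614737-60614756) continued this pattern. Their mean was 0.352 uninduced and 0.508, 0.466 and 0.425 induced, a change of 0.22 profile means. Counted in profile means, the uninduced value lay outside the induced range at 15 of the 20 nt, and at 11 it was the lowest. Over the 407 nt of the region it lay outside at 64.9%. A272 had 0.582 uninduced and 1.01, 1.51 and 0.824 induced, and U276 had 0.725 and 1.31, 1.45 and 1.32. These single bases carried much of the mean, since the change of the median over the 20 nt was 0.027 profile means.

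The stretch of the intron richest in U and G was nt 309 to 358. It had a mean reactivity of 0.632 uninduced and 0.690, 0.696 and 0.675 induced over its 48 measured nt. The 52 intron nt before it averaged 0.440 and 0.488 ± 0.0117 (SD, n = 3), and the 78 measured nt after it 0.616 and 0.667 ± 0.00223. Reactivity therefore stepped up between the intron start and the U- and G-rich stretch and stayed at that level to the end of the measured intron. High and low nucleotides sat side by side in the stretch: 20 of 48 were below 0.4 and 11 above 0.85 in all 4 profiles.

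The size of the change over this stretch turned on how it was summarised. Its mean was 0.064 profile means higher with induction, and 0.028 without G325. By the median the change was 0.24, with profiles scaled by their median it was 0.11, and on the deposited scale it was 0.13. The 25 nt richest in U (nt 311 to 335) had 0.674 uninduced and 0.712, 0.775 and 0.723 induced. The 25 nt richest in G (nt 318 to 342) had 0.738 and 0.792, 0.8496 and 0.833. The change of the U-richest part was 0.077 profile means by the mean and -0.18 by the median. That of the G-richest part was 0.12 by the mean and -0.34 by the median, so no direction can be given for either.

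The high values followed the order of bases within the repeats. The intron holds 11 runs of 4 to 7 uridines, and their nucleotides were grouped by place in the run, a grouping made after the values were seen. The first uridine of a run averaged 0.671 uninduced and 0.675 ± 0.0273 induced (SD, n = 3). The second averaged 0.691 and 0.823 ± 0.0686. The 17 uridines between the second and the last averaged only 0.0952 and 0.106 ± 0.0247, and 15 of them stayed below 0.4 in every profile. The last averaged 0.374 and 0.408 ± 0.0742. In the longest run both ends were high: U311 had 1.43 uninduced and 1.65 to 1.799 induced, U313, U314 and U315 had -0.0204 to 0.0751 over all profiles, and U317 had 1.16 and 0.655 to 1.15. Not every run had this shape. Of the 11 last uridines 5 stayed below 0.4 in every profile, as did 2 of the 11 second ones.

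Single intron guanosines flanked by uridines were reactive on average, while in pairs the first and the second differed. The 10 single intron guanosines flanked by uridines averaged 1.16 uninduced and 1.199, 1.61 and 1.43 induced, and 7 of 10 were above 0.85 in all 4 profiles. G325 led them, with 1.497 uninduced and 2.07, 2.43 and 2.52 induced. In the 5 measured intron pairs of guanosines flanked by uridines, the second was the more reactive on average. The 5 first guanosines averaged 0.235 uninduced and 0.381 ± 0.0108 induced, and the 5 second ones 1.30 and 1.43 ± 0.0830. The second was higher in all 4 profiles at 3 of the 5 pairs, G318 and G319, G331 and G332, and G336 and G337. At G319 the values were 2.28 uninduced and 1.81, 2.62 and 1.98 induced, beside 0.434 to 0.531 at G318. G332 had 1.90 uninduced and 2.33, 2.53 and 2.66 induced. G341 and G342 had the order in 2 profiles and G424 and G425 in 1. The other 4 measured GG pairs, at nt 211, 241, 256 and 284, lacked it in at least 2 of the 4 profiles each. Of these, G256 and G257 at the splice site were also flanked by uridines, and there the second was lower in all 4 profiles. G347, the most reactive guanosine, with 3.05 uninduced and 2.89, 2.71 and 2.44 induced, was itself the first of a pair whose second, nt 348, had no value, so it could not be placed in this order. Within a run of 1 base a deletion cannot be placed on a single nucleotide; how such deletions were placed is not given in the sources used here, and its part in this pattern was not tested.

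**Figure D4:**
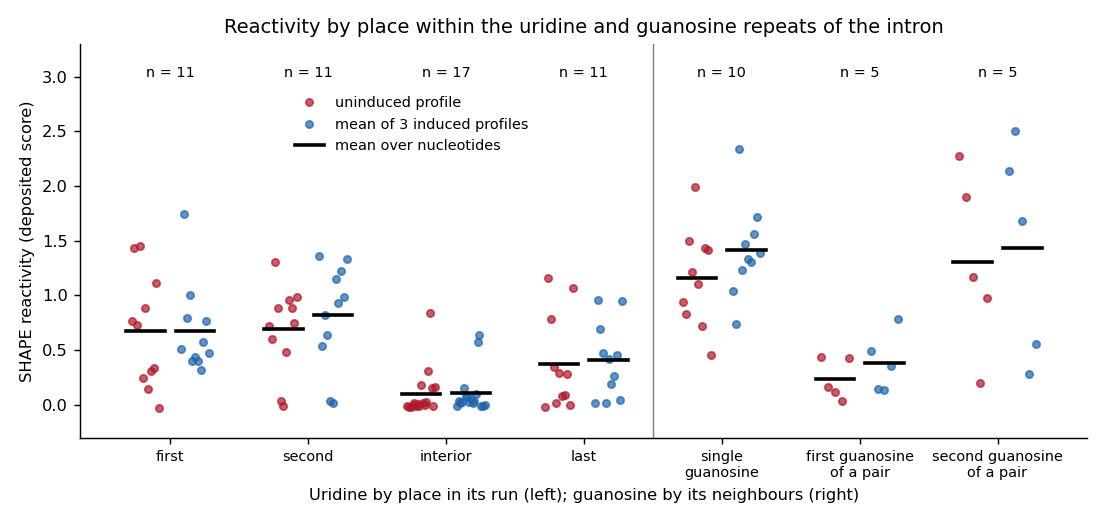
SHAPE reactivity (deposited score, vertical axis) of intron uridines by place in their run and of intron guanosines by their neighbours (horizontal axis). Each point is a nucleotide, red in the uninduced profile and blue as the mean of 3 induced profiles, and black lines are means. Interior uridines (n = 17) average 0.0952 uninduced and 0.106 induced, with some points well above, and single guanosines (n = 10) average above 1 in both.

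By base, intron guanosines averaged 0.796 uninduced and 0.887 ± 0.0684 induced (SD, n = 3), the highest of the 4. Intron adenosines averaged 0.687 and 0.688 ± 0.0255, uridines 0.497 and 0.554 ± 0.0244, and cytidines 0.314 and 0.347 ± 0.0224. Guanosine thus led in the intron and adenosine in the exon, and cytidine was lowest in both.

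At the end of the U- and G-rich stretch and just beyond it, 1 window of 25 nt passed the test between groups. Windows were counted from nt 1, and 2 of the 17 over the region (11.8%) were called in limma. With this 1 call, the share among windows touching the exon or downstream intron was near that of the region. In nt 351 to 375 (chr3:60614831-60614855), a stretch of U runs broken by G and C, reactivity was 0.597 uninduced and 0.747, 0.805 and 0.755 induced. The rise was 0.33 profile means (SE 0.11), and limma gave it an adjusted p of 0.0369. It was shared among many nucleotides: in profile means 20 of 25 were higher with induction, and at 17 the uninduced value lay below all induced ones. U355 had the largest difference upward among them, with 0.483 uninduced and 1.39, 0.797 and 1.28 induced, and its whole run UUUU at nt 354 to 357 averaged 0.184 uninduced and 0.515, 0.366 and 0.506 induced. The CUG at nt 366 to 368, within the window, had 0.682 uninduced and 0.942, 1.21 and 0.977 induced.

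The call rested on all 3 induced profiles. Without replicates 1, 2 and 3 in turn the limma adjusted p was 0.140, 0.130 and 0.103, with a change of 0.30 to 0.36. With the median of a window in place of its mean, the change was 0.67 profile means and the limma adjusted p 0.0597. In windows of 10 nt, of which 4.76% over the region were called in limma, none touching the exon or downstream intron passed. The nearest, nt 361 to 370 (chr3:60614841-60614850), was higher in induced profiles at 9 of 10 nt and by 0.52 profile means, with an adjusted p of 0.0871 in limma. At the end of the measured intron the window of nt 426 to 450, with only 11 measured nt, had 0.599 uninduced and 0.490, 0.596 and 0.450 induced. Its change of -0.25 profile means had an adjusted p of 0.0541 in limma, and it passed without replicate 2. The 2 windows that cover most of the exon, nt 201 to 225 and nt 226 to 250, had changes of 0.021 and -0.11 profile means, with limma adjusted p of 0.861 and 0.418.

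**Figure D5:**
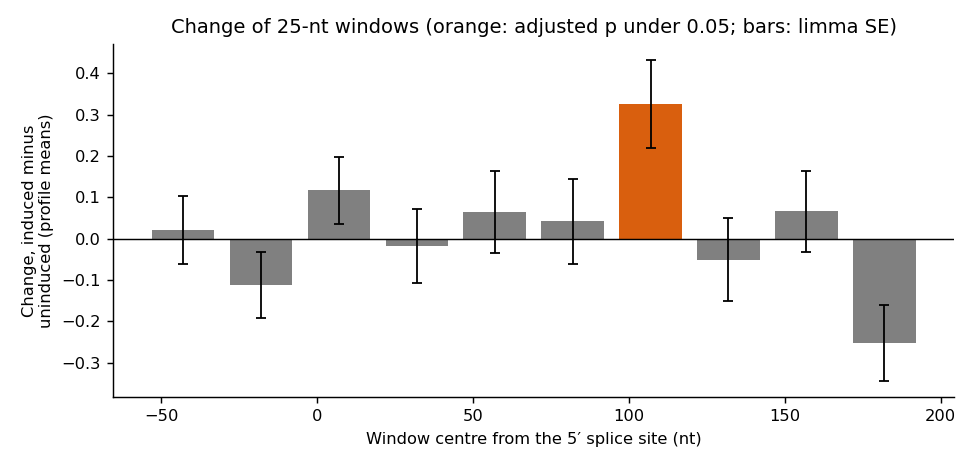
Change of mean reactivity, induced minus uninduced (vertical axis, in profile means), in 25-nt windows by the distance of their centre from the 5′ splice site (horizontal axis, nt). Bars are limma estimates with their SE; the orange bar, nt 351 to 375, passed at an adjusted p of 0.0369 in limma and the grey ones did not.

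No single nucleotide of the exon or the downstream intron passed limma. The count was 0 of 232 at an adjusted p under 0.05, against 0.246% over the 407 nt of the region, and the lowest adjusted p among them in limma was 0.169. At an unadjusted p under 0.05 limma gave 26 members, 11.2% of those measured, beside 11.1% over the region. Of the 26, 8 were higher with induction and 18 lower, where the shares over the region were 3.44% and 7.62%. The members' shares were thus near those of the region. The median standard error of a change was 0.35 profile means. Leaving out induced replicate 1 gave 9 calls, among them G257 and G415, leaving out replicate 3 gave 3 (C267, G285 and C293), and leaving out replicate 2 gave 0.

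Counted in profile means rather than deposited scores, the uninduced value lay outside the 3 induced ones at 155 of 232 members (66.8%). That was close to the 64.9% of the region. In the exon 15 of 54 uninduced values were below all induced ones and 20 above. In the intron 73 of 178 were below and 47 above, while over the region 37.6% were below and 27.3% above. The exon and intron thus leaned opposite ways on this scale, a difference that was not tested. Counts on the deposited scale can differ.

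Of the 5 largest differences upward and 5 downward, 6 lay at nt 398 or further downstream. G415 (60614895) had 0.453 uninduced and 0.985, 1.74 and 1.44 induced, higher by 2.06 profile means with a limma adjusted p of 0.408. U417 (60614897) had 1.06 and 1.73, 1.97 and 2.05, and G398 (60614878) had 0.611 and 0.989, 1.75 and 1.13. At G415 and G398 the induced replicates themselves spread widely, with an SD of 0.382 and 0.405. Deposited standard errors were also larger toward the 3′ end of the measured intron. They were 0.00586 to 0.00689 at G415, against profile medians of 0.00183 to 0.00199 over the intron. On the downward side A419 (60614899) had 1.199 uninduced and 0.570, 0.388 and 0.553 induced. A428 (60614908) had 1.397 and 0.852, 0.739 and 0.507, and A403 (60614883) had 1.797 and 1.53, 0.864 and 0.959. Nearer the exon U298 (60614778) had 0.947 and 0.409, 0.275 and 0.366. Groups did not overlap at any of these, since that was part of how they were picked, and limma adjusted p-values were 0.235 to 0.520.

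U298 stood beside A297 (60614777), a leading peak of the intron, with 2.16 uninduced and 2.93, 2.54 and 3.10 induced. The highest mean induced value of all was that of U400 (60614880), with 3.01 uninduced and 3.51, 2.54 and 3.82 induced. U400, U269 and U409 had the largest SD between induced profiles: 0.668, 0.548 and 0.509. At each of these the uninduced value fell within the induced range.

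Short motifs known as binding places of splicing factors gave no common direction. The 1 GCAUG, the element read by RBFOX proteins, at nt 285 to 289 (chr3:60614765-60614769), had 0.638 uninduced and 0.717, 0.606 and 0.510 induced, and so overlapped. The 4 UAG sites, a core of hnRNP A1 binding, all in the intron, averaged 0.345 and 0.483 ± 0.0120 (SD, n = 3). The higher induced mean came from the UAG at nt 396 to 398, with 0.658 and 0.866, 1.14 and 1.06, and in that at nt 301 to 303, with 0.491 and 0.751, 0.560 and 0.564. The other two UAG sites were low in all profiles, at 0.103 and 0.130 uninduced. The 7 measured CUG sites averaged 0.419 uninduced and 0.525 ± 0.0350 induced, from 0.178 at the splice site to 0.778 at nt 371 to 373 in the uninduced profile. Single CUG sites went both ways. That at nt 413 to 415 had 0.185 uninduced and 0.370, 0.693 and 0.552 induced. That at nt 224 to 226 had 0.448 and 0.207, 0.174 and 0.290. The mean of the 3 measured AAA sites was lower with induction, at 0.702 and 0.524 ± 0.0612, led by nt 393 to 395 with 0.748 and 0.528, 0.348 and 0.389. The AAA at nt 218 to 220 had 0.402 uninduced and 0.361, 0.458 and 0.494 induced, and so overlapped. Runs of 3 or more G did not occur, and both UGUG or GUGU sites, letters read by CELF proteins, lay in the unmeasured end.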

How the data were processed

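Profiles hold a reactivity score per nucleotide with a standard error and a code of -999 where no value was given, as the authors deposited them. Which software counted mutations, how scores were normalized and which DMSO control belonged to which NAI sample is not given in the sources used here. Per the submitters' processing notes the build was mm10. Profiles were grouped by sample titles. The DMSO samples, and the other uninduced NAI sample, were not analysed here on their own. The sequence of 1 intron stretch is not reported here.

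Levels are printed as deposited. For changes, each profile was divided by its mean over the 407 nt measured in all 4 profiles, with values clipped to the 5th to 95th percentile, giving profile means. Counts of nucleotides whose uninduced value lay outside, below or above the induced ones were also made on these scaled values. Induced minus uninduced was tested in R 4.3.3 by the lmFit and trended eBayes functions of limma 3.58.1, adjusted by Benjamini-Hochberg over the 407 nt, or over all windows with at least 5 measured nt. With 1 uninduced profile, limma takes its spread from the induced ones. The fit was also run on simulated data that gave the uninduced profile the same spread as the induced ones. That run cannot show how the fit behaves if the uninduced spread differs. Folds used ViennaRNA 2.7.2 with Deigan pseudo-energies (slope 1.8, intercept -0.6); figures and summaries used Python 3.11.15.

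Named nucleotides were the 9 of the splice site, the 5 largest rises and 5 largest falls with the uninduced value outside the induced range, the 5 most reactive of exon and of intron, the 3 with the largest SD between induced profiles, and the longest runs below and above 0.4; the others were chosen after their values were seen. The members, lists and rules were chosen with earlier results of these data known. Alternatives covered scaling, negative values, ranks, the log2(value + 0.1) scale, the variance trend, end and high-error nucleotides, window size and start, medians, folding settings and leaving out each induced replicate.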

Additional observations from a re-analysis of the deposited data

How the results depend on the processing

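The count of 0 members past the limma threshold became 3 with ranks, 2 on the log2 scale and 0 to 9 when an induced replicate was left out, and stayed 0 under the other settings run. The count of 1 window became 0 with 10-nt or 50-nt windows or a median (change 0.67, limma adjusted p 0.0597), 2 with negative values set to 0, with no variance trend or with the scale from every nucleotide measured in each profile (chosen after seeing the data), and 0 to 1 without a replicate; from the first exon nucleotide it was again 1, but nt 428 to 452.

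Changes of segment means, in profile means, moved as follows with medians: exon -0.11, intron 0.028, splice site 0.12, first 20 nt 0.027, U- and G-rich stretch 0.24, U runs 0.23, and with the sign turned U-richest part -0.18 and G-richest part -0.34; exon minus intron became -0.239. As deposited, the intron change was 0.12 and that of the U- and G-rich stretch 0.13, and with scaling by the median 0.10 and 0.11. Without its largest change, the splice site had 0.11 and the U- and G-rich stretch 0.028. Modelled pairing with slope 2.6 was 0.558 in the induced exon, 0.589 and 0.551 at the splice site (uninduced, induced) and 0.271 and 0.315 in the intron. Folded without the upstream intron, the exon had 0.589 and 0.624 and the site 0.794 and 0.758. From sequence alone, exon, site and intron had 0.701, 0.633 and 0.551 over the whole region. Without the upstream intron they had 0.734, 0.701 and 0.525 from sequence alone. At the site, guided folds thus lay below sequence alone over the whole region and above it without the upstream intron. Signs also turned at U258 (-0.15 with ranks, -0.065 on the log2 scale, -0.069 to 0.061 with a replicate left out), U269 (-0.067 to 1.10 with a replicate left out) and U400 (-0.37 to 1.26 likewise). Beyond what each setting itself changes, the cause was not tested.

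No paired analysis was possible because the induced and uninduced profiles share only 1 set number. Depth is unknown, and the spread of the uninduced state cannot be measured from 1 profile.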
